A study of Physcomitrium patens with 8 samples.

Results

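Reads of 26610 genes of the moss Physcomitrium patens were counted in 8 RNA-seq libraries. Of these genes, 7894 have a build V3.0 gene model whose record gives no identifier of an older V1.6 model, and the other 18716 have one. The genes without it are called unlinked below and the others linked. Membership was read from the deposited gene models alone and used no expression value. The libraries come from chloronemata, the green filaments of young moss tissue, of the Gransden strain at 6 days after subculture. The 2 genotypes, wild-type (WT) and PpanrKO (KO), were each sampled untreated, after 1 h on medium with ABA (1e-05 M), after 1 h on medium with mannitol (10% w/v), and after slow dehydration in a desiccator to a loss of 70% of fresh weight. The 8 groups thus share strain, tissue and age and differ in genotype and treatment. Per its title, the series concerns an ABA response regulator found in basal land plants and needed to acquire desiccation tolerance. The labels give neither the number of KO clones nor a mock transfer of the controls, and each library holds pooled RNA of 3 biological replicates.

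A gene model is the stretch of genome that an annotation assigns to 1 transcribed unit, and each annotation release carries forward some earlier models, revises some and adds others. A model with no predecessor can be a unit that was missed before, a split or merged one, or sequence placed anew, and the deposited record does not say which. Plants under water stress make the hormone abscisic acid (ABA), which in mosses prepares cells to survive drying. Mannitol draws water out of cells by osmosis.

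Every gene was measured as a normalized read count, which carries no correction for gene length. Library totals were 22516957 to 38767634 reads. Since each group is 1 library of pooled RNA, the spread between cultures was not measured, a difference between 2 libraries has no replicate check, and such differences are described without a test. Intervals in brackets are exact 95% intervals of a ratio of reads and cover counting error only. Bulk RNA cannot tell fewer expressing cells from less RNA per cell. The IDs come with no gene names, so no gene is described by function.

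Unlinked models were short, often close to a neighbour, and frequent outside the chromosomes. Their median genomic span was 1386 bp (quartiles 808 and 2460), against 3077.5 bp (quartiles 2014 and 4495) for linked models. On the unplaced scaffolds lay 696 unlinked genes (8.82%) but 37 linked genes (0.198%). On the 27 chromosomes the unlinked share ran from 25.1% to 33.2% of genes, with a median of 27.8%. Another gene overlapped 11.7% of unlinked models and 7.28% of linked ones, and the median gap to the nearest gene was 559 bp against 1473 bp. On the chromosomes, 35.4% of unlinked genes were followed by another unlinked gene, whereas 24.9% of linked genes were followed by an unlinked one. Most runs were short. There were 3083 unlinked genes with no unlinked neighbour, 997 pairs, 367 runs of 3, 125 runs of 4 and 84 longer runs that held 520 genes.

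Genes with nearly the same reads as another gene were also more frequent. A mean over the 8 libraries of 20 or more normalized reads was taken as the level limit. Of the 4376 unlinked genes that reached it, 141 (3.22%) had a near copy, meaning a gene whose reads lay within 5% of their own in all 8 libraries, against 0.945% of linked genes. In 50 of the 141 at least 1 near copy was a linked gene, and in 91 all near copies were unlinked. The sources used here do not say how reads that match several places were counted, so values of such genes are uncertain.

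Unlinked genes were expressed less often and at lower levels. No read fell on 1066 of them (13.5%) in any library, against 673 linked genes (3.60%). The level limit was reached by 4376 (55.4%), compared with 82.5% of linked genes and 74.5% of all genes. The median of the mean value was 28.9 for unlinked and 384 for linked genes, and 6.09% of unlinked against 23.7% of linked genes reached 1000. At the limit of 20, the 2 unlinked genes just above it were Phpat.012G067500 and Phpat.019G054500, with means of 20.005 and 20.016. The 2 just below it, Phpat.015G040100 and Phpat.024G076400, had means of 19.94 and 19.94.

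**Figure D1:**
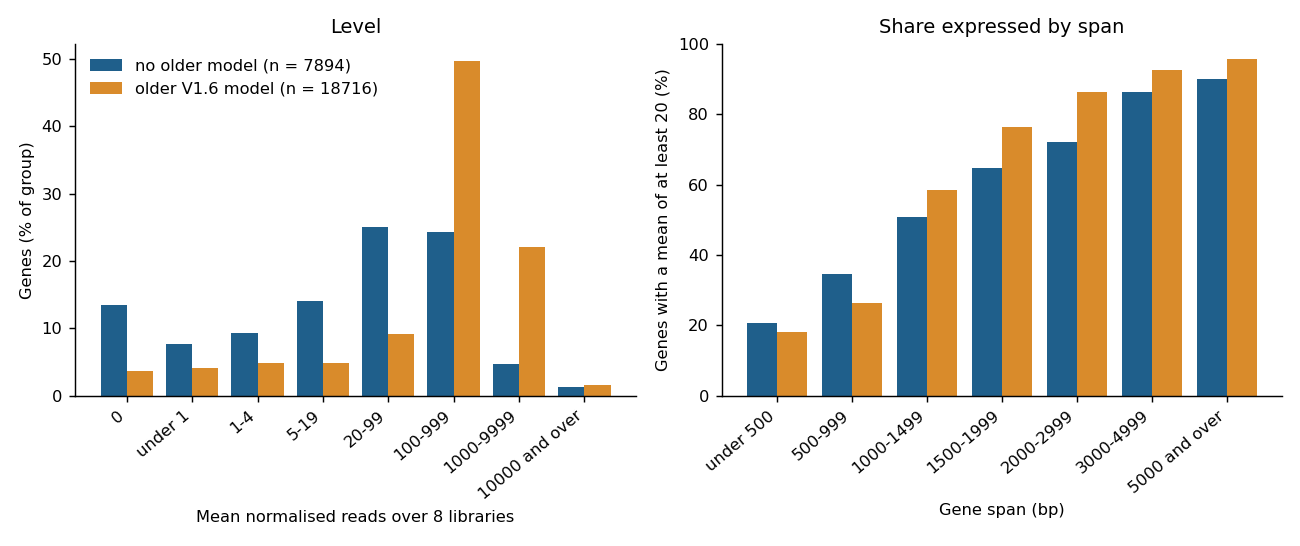
Left, percentage of unlinked (no older model, blue) and linked genes (older V1.6 model, orange) in classes of mean normalized reads over the 8 libraries; right, percentage of genes with a mean of at least 20 in classes of gene span (bp). Unlinked genes lie lower, with 13.5% at 0 reads, and the share expressed grows with span in both groups, from 20.7% to 90.1% in unlinked genes.

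With gene spans matched, the gap in the share expressed was small, whereas the gap in level remained. Because longer transcripts collect more reads, linked genes were also weighted to the spans of the unlinked ones. The linked share at a mean of at least 20 was then 59.1%, close to the 55.4% of unlinked genes, and the linked median was 64.4 against 28.9. On the chromosomes alone the shares were 60.2% for unlinked and 60.3% for linked genes of like span, whereas the medians were 36.9 and 76.6. Under 500 bp, 20.7% of unlinked and 18.1% of linked genes were expressed, and from 500 bp to under 1000 bp the shares were 34.7% and 26.2%. From 1000 bp upward the linked genes had the larger share in every class, for example 72.0% of unlinked against 86.3% of linked genes from 2000 bp to under 3000 bp, and 90.1% against 95.8% from 5000 bp.

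The scaffolds held most of the silent unlinked genes. Of the 696 scaffold genes, 614 (88.2%) had 0 reads in all libraries and 42 had a mean of at least 20. On 6 scaffolds with at least 30 genes, every one of the 547 genes was unlinked. There, 523 genes had 0 reads and all 547 together had 71 reads over the 8 libraries. A count of 0 covers polyadenylated RNA of this tissue at this depth and does not show that a gene is never transcribed.

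At the other end of the scale, unlinked genes led the genes with the most reads. Of the 10 genes with the highest mean, 9 were unlinked, as were 28 of the top 50, 39 of the top 100 and 168 of the top 1000 (16.8%), beside 29.7% of all genes. They took 29.2% of all reads. Their share of the reads was 33.6% in the WT control, 32.2% with ABA, 21.1% with mannitol and 30.7% after dehydration. In KO it was 32.2%, 34.0%, 22.9% and 28.7% in the same order. Mannitol gave the lowest share in both genotypes, and the other 6 libraries lay between 28.7% and 34.0%.

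**Figure D2:**
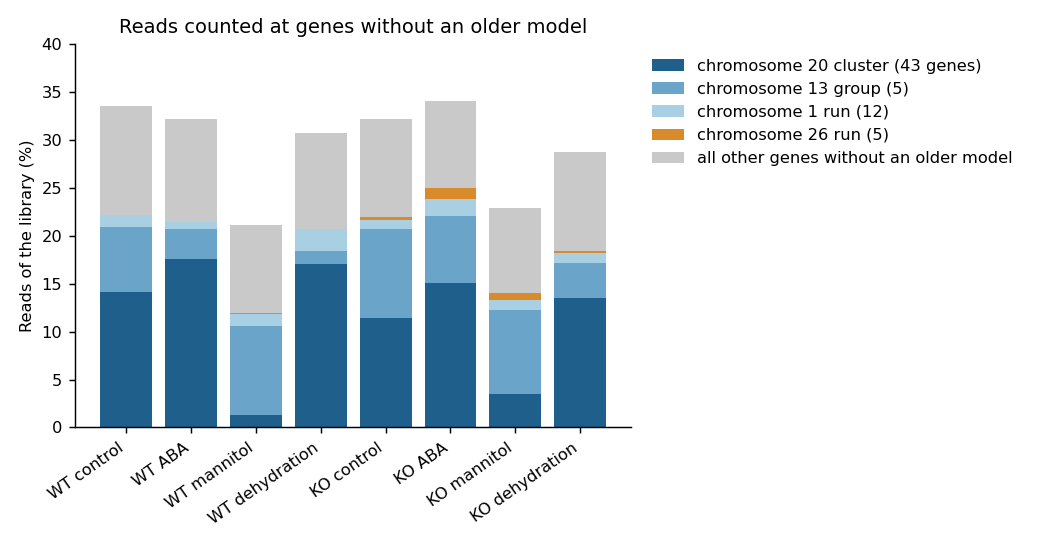
Stacked bars give the percentage of each library's reads that fell on unlinked genes, split into the chromosome 20 cluster, the chromosome 13 group, the runs on chromosomes 1 and 26, and all other unlinked genes. The cluster takes 14.1% in the WT control and 1.29% in WT mannitol, and the chromosome 13 group takes 6.82% in the WT control and 1.35% in WT dehydration.

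A block at 1 end of chromosome 20 held much of this abundance. It was chosen after its values were seen, and so were the groups on chromosomes 13, 1 and 26 described below. From position 6848 to 243604 (build V3.0, 236757 bp) lay 44 genes, of which 43 were unlinked, and the next gene was 32856 bp away. All 43 had a mean of at least 20, with a lowest mean of 47.1, a median of 18160 and a highest of 666693. Of these genes, 17 were on the plus and 26 on the minus strand, 23 overlapped another gene and 21 had a near copy. Among the plus-strand models were 9 with spans of 2809 to 2819 bp and means of 144715 to 199582, values so alike that counting of shared reads cannot be told apart from equal transcription of several copies. The gene Phpat.026G000100 at the start of chromosome 26 (1627 to 4444, plus strand), also chosen after its values were seen, had a like span of 2818 bp and a mean of 189133.

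The highest mean of any unlinked gene belonged to Phpat.020G002700 (chromosome 20, 158748 to 160374, minus strand), which overlaps another gene and shares its values with Phpat.020G003200. It had 677547 reads in the WT control, 863677 with ABA, 59162 with mannitol and 679790 after dehydration. In KO it had 681747, 996036, 186910 and 618850 reads in the same order. The mannitol library was the lowest of its genotype in both cases.

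The cluster as a whole followed the same course. It took 14.1% of reads in the WT control, 17.6% with ABA, 1.29% with mannitol and 17.0% after dehydration. In KO these shares were 11.4%, 15.0%, 3.52% and 13.5%. The summed signal was 10.1-fold lower with mannitol than in the control in WT and 4.69-fold lower in KO. With ABA it was 2.39-fold higher in WT and 1.33-fold higher in KO, and with dehydration it was 1.32-fold higher in WT and 1.20-fold lower in KO. At least 4-fold lower with mannitol were 33 of the 43 genes in WT and 20 in KO, so the cluster made up a visible part of the mannitol counts given below.

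**Figure D3:**
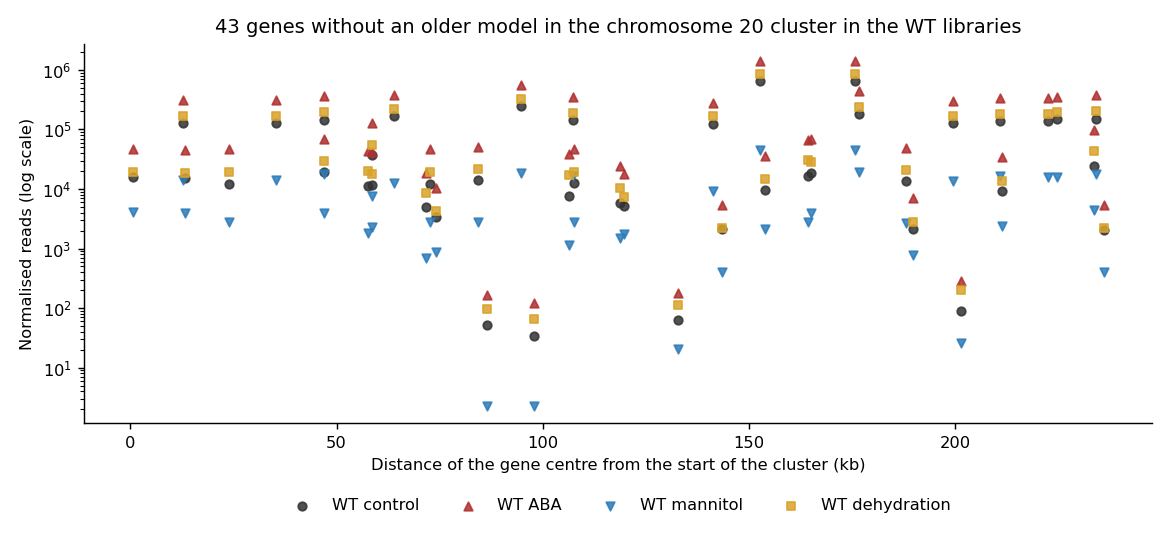
Normalized reads (log scale) of the 43 unlinked genes of the chromosome 20 cluster in the 4 WT libraries, by distance of the gene centre from the start of the cluster (kb), each mark being 1 gene in 1 library. Along the whole block the mannitol marks lie lowest, with 33 of the 43 genes at least 4-fold below the control.

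The chromosome 13 group had another pattern. Its 5 unlinked genes lay between 11432214 and 11679572 and had means of 201499 to 451456. Phpat.013G054400 (11615136 to 11618277, plus strand), next in mean, had 424390 reads in the WT control, 219601 with ABA, 802083 with mannitol and 72886 after dehydration. In KO it had 726980, 646411, 737740 and 231580. Phpat.013G054500 (11624452 to 11626931, plus strand), which followed it in mean, had 409786, 211867, 759757 and 69953 WT reads and 705256, 620518, 702572 and 222460 KO reads. Dehydration gave the lowest count of both genes in each genotype. Over the 5 genes the summed signal was 4.61-fold lower with dehydration in WT and 3.69-fold lower in KO, while with mannitol it was 1.49-fold higher in WT and 1.54-fold lower in KO.

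A run of 12 unlinked genes on chromosome 1 (1951045 to 2423032) held 10 abundant genes and 2 with means of 24.8 (Phpat.001G011000) and 29.4 (Phpat.001G011100). Its summed signal was 2.22-fold higher with dehydration in WT and 1.15-fold lower in KO, whereas with ABA it was 1.29-fold higher in WT and 2.02-fold higher in KO. On chromosome 26, 5 successive unlinked genes between 3672772 and 3843939 took 0.0119% of reads in the WT control and 0.328% in the KO control. Their summed signal was 39.5-fold higher in KO than in WT without treatment, 232-fold with ABA, 4.75-fold with mannitol and 951-fold with dehydration.

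Some abundant unlinked genes hardly varied. By the range of log2(value + 10) over the 8 libraries, the steadiest with a mean of at least 1000 were Phpat.015G048900 (chromosome 15, 8158917 to 8163114, minus strand) with a range of 0.48 and Phpat.002G039500 (chromosome 2, 6449286 to 6453867, plus strand) with 0.50. Among the 4376 genes above the level limit, which removes genes low everywhere, the median range was 1.79 against 1.88 for linked genes of like mean value. A range of at least 4 log2 units occurred in 8.27% and 7.87%. The library with the highest value was KO ABA for 25.2% of them and WT ABA for 20.2%, compared with 19.8% and 15.8% of linked genes of like mean. The highest value was in WT mannitol for 14.9% against 21.5%, and in KO mannitol for 16.8% against 21.1%. Without weighting, linked genes gave 24.8% for KO ABA, 19.8% for WT ABA, 18.3% for WT mannitol and 16.8% for KO mannitol. The ABA shares of unlinked genes were thus close to those of unweighted linked genes. Which library is highest also depends on the scaling.

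The responses to treatment were then read as the difference of log2(value + 10), which understates changes of low genes, and counted where it reached 4-fold. Percentages of unlinked genes are of the 4376 that reached the level limit. For each comparison they were set beside all 19821 genes with a mean of at least 20 and beside linked genes weighted to the same distribution of mean values. The 3 treatments of a genotype share its control library. Where 4 read counts of a genotype are listed, their order is control, ABA, mannitol and dehydration.

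In WT with ABA, 230 unlinked genes (5.26%) were 4-fold or more above the control and 129 (2.95%) as far below it. The background over all genes was 6.5% and 3.27%, and linked genes of like mean gave 5.86% and 4.87%. The median difference was 0.14 for unlinked genes, 0.18 for all genes and 0.02 for linked genes of like mean. The largest difference was that of Phpat.003G020400 (chromosome 3, 3449429 to 3450825, minus strand). It had 14 reads in the WT control, 127600 with ABA, 10088 with mannitol and 56148 after dehydration, and 22, 1, 1 and 51 reads in KO. Every treated WT library was far above the WT control, and no KO library was. The ratio was 15266-fold with ABA in WT (9098 to 27924). Its linked neighbour Phpat.003G020800 had nearly the same reads, 127605 with ABA in WT, and counting of shared reads cannot be told apart from equal transcription of both. Between these 2 genes lay the linked genes Phpat.003G020500 and Phpat.003G020700, near copies of each other. With ABA they had 189279 and 189290 reads in WT and 2 reads each in KO. Next among unlinked genes came Phpat.003G020600 (chromosome 3, 3463847 to 3464302, minus strand), with 2, 39339, 2407 and 12764 WT reads and 5, 0, 0 and 10 KO reads. The lowest differences were those of Phpat.011G016300 (chromosome 11, 2520495 to 2521872, plus strand) and Phpat.011G016200 (2491289 to 2492466, minus strand). The former had 1284, 15, 10 and 11 WT reads and 467, 24, 17 and 42 KO reads, the latter 1113, 13, 10 and 9 WT reads and 394, 19, 12 and 42 KO reads. Both were far below their control in every treated library of both genotypes, and both were 51.1-fold lower with ABA in WT.

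In WT with mannitol, 183 unlinked genes (4.18%) were 4-fold or more above the control and 154 (3.52%) as far below it, beside a background of 4.44% and 2.43%. Linked genes of like mean gave 4.75% and 3.03%. Without the chromosome 20 cluster the lower count was 121. The median was 0.29 for unlinked genes, 0.47 for all genes and 0.42 for linked genes of like mean. Phpat.003G020400 and Phpat.003G020600 again had the largest differences, 8.35 and 7.27. The lowest were those of Phpat.021G025100 (chromosome 21, 4934485 to 4936169, plus strand) and Phpat.024G048300 (chromosome 24, 8860362 to 8862581, minus strand), whose values are close to those of Phpat.021G025300. Phpat.021G025100 had 15993, 831, 58 and 569 WT reads and 4024, 1044, 102 and 940 KO reads. Phpat.024G048300 had 22390, 1231, 88 and 802 WT reads and 6014, 1522, 145 and 1409 KO reads. In both genes mannitol was lowest and control highest in each genotype.

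In WT with dehydration, 169 unlinked genes (3.86%) were 4-fold or more above the control and 283 (6.47%) as far below it. The background was 4.35% and 6.61%, and linked genes of like mean gave 3.43% and 8.53%. The median was -0.24, against -0.20 for all genes and -0.36 for linked genes of like mean. The 4 extreme genes were those named for ABA. Phpat.003G020400 was 5116-fold higher (3049 to 9359), and Phpat.011G016300 was 91.5-fold lower (51.0 to 184).

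In KO fewer genes passed 4-fold with ABA and dehydration than in WT, among unlinked genes as among all. With ABA, 50 unlinked genes (1.14%) were higher and 69 (1.58%) lower, beside a background of 0.863% and 1.32% and 1.12% and 1.83% of linked genes of like mean. With mannitol, 94 (2.15%) were higher and 162 (3.70%) lower, beside 1.47% and 2.99% of all genes and 2.79% and 3.12% of linked genes of like mean. Without the chromosome 20 cluster the lower count was 142. With dehydration, 18 (0.411%) were higher and 91 (2.08%) lower, beside 0.288% and 1.81% of all genes and 0.355% and 2.75% of linked genes of like mean. The medians of unlinked genes were 0.27, 0.07 and -0.20 for ABA, mannitol and dehydration, and those of all genes were 0.23, 0.13 and -0.25.

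The genes with the largest differences in KO were other ones. Phpat.005G092200 (chromosome 5, 17716009 to 17717302, plus strand) had 18 reads in the KO control, 663 with ABA, 1470 with mannitol and 107 after dehydration, and 4, 0, 8 and 0 in WT. In KO the ratio to control was 31.6-fold for ABA (19.8 to 53.6) and 52.2-fold for mannitol (32.9 to 88.3). Phpat.011G034500 (chromosome 11, 6009489 to 6010017, plus strand) had 20, 676, 386 and 227 KO reads and 25, 73, 28 and 10 WT reads. Phpat.018G062000 (chromosome 18, 13259200 to 13262275, plus strand) had 10, 372, 2734 and 97 KO reads and 81, 27, 151 and 189 WT reads. These 3 genes were higher in every treated KO library than in the KO control. With dehydration the largest differences were those of Phpat.001G043100 (chromosome 1, 7536666 to 7538187, minus strand), whose values match those of Phpat.1Z039500, and Phpat.001G041900 (7381922 to 7383359, plus strand). Phpat.001G043100 had 1, 6, 402 and 297 reads in KO and 3 to 7 in WT, and Phpat.001G041900 had 1, 6, 364 and 285 KO reads and 3 to 7 WT reads.

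Lowest with ABA in KO were Phpat.021G018900 and Phpat.013G080900. Phpat.021G018900 (chromosome 21, 3477345 to 3477434, plus strand), with a span of 90 bp the shortest of the unlinked models, had 275, 9, 0 and 10 KO reads and 51, 285, 64 and 299 WT reads. It was lower in every treated KO library than in the KO control, whereas in WT it was higher with ABA and dehydration and close to the control with mannitol. Phpat.013G080900 (chromosome 13, 16729937 to 16737882, plus strand) had 143, 0, 130 and 13 KO reads and 369, 6, 57 and 120 WT reads, lowest with ABA in both. With mannitol in KO the lowest were Phpat.016G058400 (chromosome 16, 9168353 to 9169778, minus strand) and Phpat.016G058700 (9190170 to 9191711, minus strand), the latter with near copies at Phpat.016G058500, Phpat.016G058600 and Phpat.016G058800. Phpat.016G058400 had 78789, 13834, 1933 and 50011 KO reads and 44362, 55983, 2595 and 14956 WT reads, and was 63.8-fold lower with mannitol in KO (61.0 to 66.8). Phpat.016G058700 ran in parallel with 85243, 15034, 2108 and 55173 KO reads and 47421, 59385, 2828 and 15769 WT reads. Mannitol gave the lowest count in both genotypes for this pair, while ABA gave the highest count in WT only. With dehydration in KO, Phpat.002G004000 (chromosome 2, 373251 to 376151, minus strand) had the lowest difference, with 196, 152, 77 and 4 KO reads and 67, 0, 9 and 0 WT reads, followed by Phpat.021G018900.

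Read over all 10 comparisons of 2 libraries, 6 between treatments and controls and 4 between genotypes, unlinked genes had a smaller 4-fold share than linked genes of like mean in 13 of 20 directions and a larger one in 7. The differences ran from -2.07 to 0.65 percentage points. With linked genes weighted to the same spans in place of the same mean values, they ran from -4.29 to 1.19 percentage points, and for higher genes with ABA in WT the linked share was 9.55% in place of 5.86%.

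**Figure D4:**
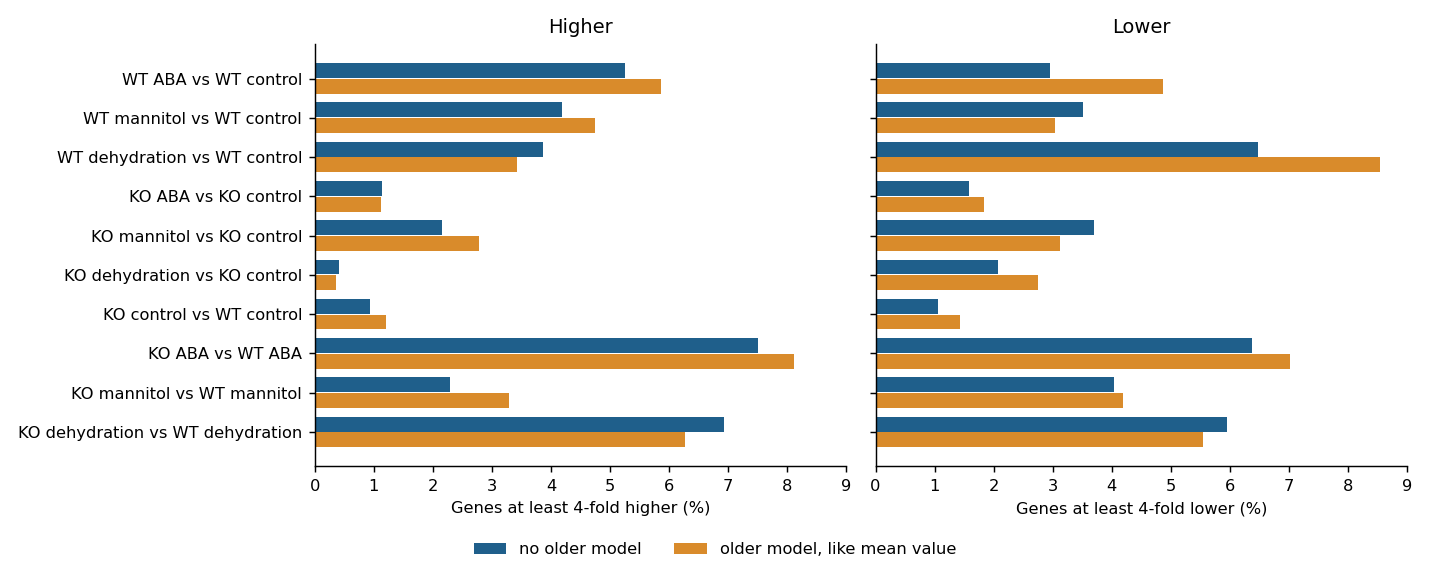
Percentage of genes at least 4-fold higher (left) and lower (right) in each comparison of 2 libraries, for unlinked genes and for linked genes weighted to the same mean values. The bars of a pair differ by at most 2.07 percentage points, the largest gap being at lower genes in WT dehydration (6.47% against 8.53%).

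For all 3 treatments in WT, the contrasts between unlinked and linked genes ran in opposite directions at low and at high levels. Among genes with a mean of 20 to 50, 2.93% of 1092 unlinked genes were at least 4-fold higher with ABA in WT against 5.51% of linked genes, and 2.20% against 6.00% were lower. With mannitol 3.02% against 6.00% were higher and 1.28% against 4.29% lower. With dehydration 1.83% against 2.08% were higher and 3.75% against 8.58% lower. Among genes with a mean of at least 1000, 13.7% of 481 unlinked genes were higher with ABA in WT against 11.02% of linked genes, and 4.16% against 2.64% were lower. In this upper class 8.94% of unlinked and 6.37% of linked genes were at least 4-fold higher with mannitol in WT. Mannitol left 70 unlinked genes (14.6%) at least 4-fold lower in WT against 2.64% of linked genes, and 70 (14.6%) in KO against 3.95%. Without the genes of the chromosome 20 cluster, 442 remained, and the lower shares with mannitol were 8.60% in WT against 2.62% of linked genes and 11.3% in KO against 3.93%. For dehydration in WT the shares in that class, again without the cluster, were 11.5% higher and 11.99% lower against 7.79% and 5.51%. The classes were set on the mean of the same 8 libraries, so they are a description.

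Genes picked at 4-fold in WT were read again in KO, where neither library had served in the pick. Of the 230 unlinked genes higher with ABA in WT, 28 (12.2%) were at least 2-fold higher with ABA in KO, and the KO median was 0.11. Linked genes gave 13.5%. Of the 169 higher with dehydration in WT, 14 (8.28%) were 2-fold higher in KO, where the median was 0.00, against 8.93% of linked genes. Of the 183 higher with mannitol in WT, 62 (33.9%) were 2-fold higher in KO, against 25.4% of linked genes. Lower genes carried over more often. They were 2-fold lower in KO for 37.98% of unlinked genes with ABA, 85.7% with mannitol and 51.6% after dehydration, against 38.3%, 75.8% and 52.1% of linked genes. The mannitol value was 81.8% without the chromosome 20 cluster.

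Because picked genes tend to lie closer to 0 in a second pair of libraries, the reverse reading is also given. The exception was the unlinked genes lower with dehydration in KO, whose median was -2.57 in KO and -2.60 in WT. Of the 50 unlinked genes that passed 4-fold upward with ABA in KO, 7 (14.0%) were 2-fold higher in WT against 37.2% of linked genes, and with dehydration 1 of 18 (5.56%) was, against 38.5%. With mannitol 50.0% of 94 were, against 48.7%. For lower genes the shares were 68.1%, 80.2% and 85.7% with ABA, mannitol and dehydration, against 61.1%, 63.5% and 79.1% of linked genes. Most unlinked genes that were lower in KO were thus lower in WT too, whereas few of those higher in KO with ABA or dehydration were higher in WT. Some genes higher in KO passed the level limit through KO alone, such as Phpat.005G092200 with 0 to 8 reads in WT. In both readings the linked genes were not weighted to like mean values. Among genes higher with ABA in KO the median of the mean value was 102 for unlinked and 301 for linked genes. With dehydration it was 80.2 and 324. A difference in level was thus not separated from these shares, and the shares of unlinked and linked genes were not tested against each other.

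Between the untreated libraries, 41 unlinked genes (0.937%) were 4-fold or more above WT in KO and 46 (1.05%) lower, beside a background of 0.903% and 0.843% and 1.21% and 1.42% of linked genes of like mean. The highest were Phpat.026G025700 and Phpat.026G026100 of the chromosome 26 run. Phpat.026G025700 (3672772 to 3675034, minus strand) had 547, 210, 9197 and 8 WT reads and 22857, 92800, 48866 and 9697 KO reads. Phpat.026G026100 (3841304 to 3843939, plus strand) had 524, 199, 8801 and 8 WT reads and 21269, 86418, 46630 and 8971 KO reads. Every KO library was above every WT library in both genes. The lowest were Phpat.011G015300 (chromosome 11, 2385571 to 2387273, minus strand) and Phpat.1Z052600 (scaffold_51, 87862 to 90854, plus strand), which overlaps another gene. Phpat.011G015300 had 1417, 2040, 1423 and 417 WT reads and 3, 31, 2 and 17 KO reads, and Phpat.1Z052600 had 1270, 1901, 1127 and 388 WT reads and 2, 33, 3 and 16 KO reads. No KO library of either gene reached the lowest WT library.

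With ABA, 328 unlinked genes (7.50%) were 4-fold or more above WT in KO and 279 (6.38%) lower, beside a background of 6.94% and 6.41% and 8.11% and 7.02% of linked genes of like mean. Lowest were Phpat.003G020400, described above, and Phpat.016G061400 (chromosome 16, 9585523 to 9587096, minus strand), with 9, 42622, 2596 and 8790 WT reads and 14, 0, 0 and 20 KO reads. With mannitol, 100 (2.29%) were higher and 177 (4.05%) lower, beside 1.78% and 4.13% of all genes and 3.29% and 4.18% of linked genes of like mean. Highest were Phpat.005G092200 and Phpat.011G016600 (chromosome 11, 2741013 to 2743759, plus strand), which had 2224, 74, 102 and 435 WT reads and 1190, 4553, 3793 and 2095 KO reads. Phpat.011G016600 was lower than control in every treated WT library and higher in every treated KO library. Lowest with mannitol was Phpat.012G077500 (chromosome 12, 14787189 to 14788506, plus strand), with 834, 71358, 21401 and 41745 WT reads and 12, 8, 3 and 18 KO reads. With dehydration, 303 (6.92%) were higher in KO and 260 (5.94%) lower, beside 6.26% and 5.6% of all genes and 6.27% and 5.55% of linked genes of like mean. Highest were Phpat.026G025900 and Phpat.026G025800 of the chromosome 26 run, with 11 and 9 reads in dehydrated WT and 12632 and 11236 in dehydrated KO.

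Relative levels between libraries depend on the scaling. Median-of-ratios scaling in place of the deposited one shifted the median of all genes by -0.47 to 0.26 on the log2 scale. In 5 comparisons it moved the split of higher to lower unlinked genes by more than 10 percentage points. The counts became 123 higher and 245 lower for mannitol in WT, 32 and 77 for ABA in KO, 26 and 72 for KO against WT without treatment, 204 and 338 with ABA, and 244 and 316 with dehydration. Linked genes were not recounted with this scaling, so these counts give no contrast with them.

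With 1 library per group, a test exists only for an effect shared by both genotypes or by all 4 conditions. A limma model of treatment plus genotype was fitted to the 8 libraries over 19821 genes, with 3 residual degrees of freedom and Benjamini-Hochberg adjustment at 0.05. The difference between genotypes in a treatment's effect is part of the residual and was not tested.

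KO against WT was called in 180 unlinked genes as higher (4.11%) and in 85 as lower (1.94%), beside a background of 3.74% and 1.67%. Linked genes of like mean gave 3.27% and 1.78%. Of the 265 called unlinked genes, 78 lay next to another gene called in the same direction. A near copy existed for 3 of the higher and 13 of the lower genes, so not all calls can be taken as separate. edgeR on the recovered reads called 125 and 105, of which 123 and 69 were also called by limma. With the ABA, mannitol or dehydration libraries left out, limma called 0 unlinked genes as higher and 0, 2 and 13 as lower. With median-of-ratios scaling it called 69 as higher, and with no level limit 0 in either direction. Of the called genes, Phpat.012G077500 fell by 9.78 ± 1.14 (SE) in KO on the log2 scale, with a limma adjusted p of 0.0235. Phpat.014G094200 (chromosome 14, 15372801 to 15374035, plus strand) fell by 8.09 ± 0.98 with a limma adjusted p of 0.0239. It had 228, 16422, 5505 and 10373 WT reads and 2, 9, 11 and 5 KO reads. For these 2 genes edgeR gave adjusted p values of 0.0290 and 0.0129. Both were lower in KO in 4 of 4 conditions. The same libraries picked the called genes, so such counts of conditions, here and below, are no separate check. Over all alternatives the adjusted p, by limma or edgeR, ran from 0.000542 to 0.126 and from 0.000678 to 0.128. The called genes that rose most, Phpat.026G025700 and Phpat.026G026100, rose by 6.17 ± 1.03 and 6.12 ± 1.02 with a limma adjusted p of 0.0368 for both, and were higher in KO in 4 of 4 conditions. edgeR did not call them, with adjusted p values of 0.0630 and 0.0625, and the range over all alternatives was 0.0278 to 0.168 and 0.0274 to 0.1675.

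The higher calls were most frequent on chromosome 19, which was singled out after its values were seen. Of the 180 higher calls, 49 lay there and 130 on the other chromosomes (3.10% of the unlinked genes tested there). The median limma KO effect of its 139 unlinked genes above the level limit was 1.14 on the log2 scale, whereas the medians of the other 26 chromosomes ran from 0.03 to 0.32. In the 4 conditions the chromosome 19 median was 1.06 without treatment, 1.20 with ABA, 0.94 with mannitol and 1.09 after dehydration. With median-of-ratios scaling these values were 0.71 to 0.92. Linked genes of chromosome 19 had a median KO effect of 1.21, so the shift was not particular to unlinked genes. On chromosome 19, 122 of the 139 unlinked genes (87.8%) had an effect above 0. On the other chromosomes this share was 51.7% to 73.3%, and among linked genes of chromosome 19 it was 91.1%. Of the 139 genes, 49 (35.3%) were called higher, against 0.562% to 10.2% on the other chromosomes and 48.5% of linked genes of chromosome 19. In 3 successive parts of the chromosome the median was 0.88, 1.25 and 1.11, with 14, 20 and 15 genes called. The treatment medians of chromosome 19 within each genotype lay within the range of the other chromosomes. The deposited KO libraries carry this shift together with their genotype, and the cause was not tested. When chromosome 19 was left out of the fit, limma called 31 unlinked genes as higher and 32 as lower, so the counts of KO calls depend on it. Only 3 of the 85 lower calls lay on chromosome 19, so most of the drop was among genes elsewhere, and its cause was not tested.

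**Figure D5:**
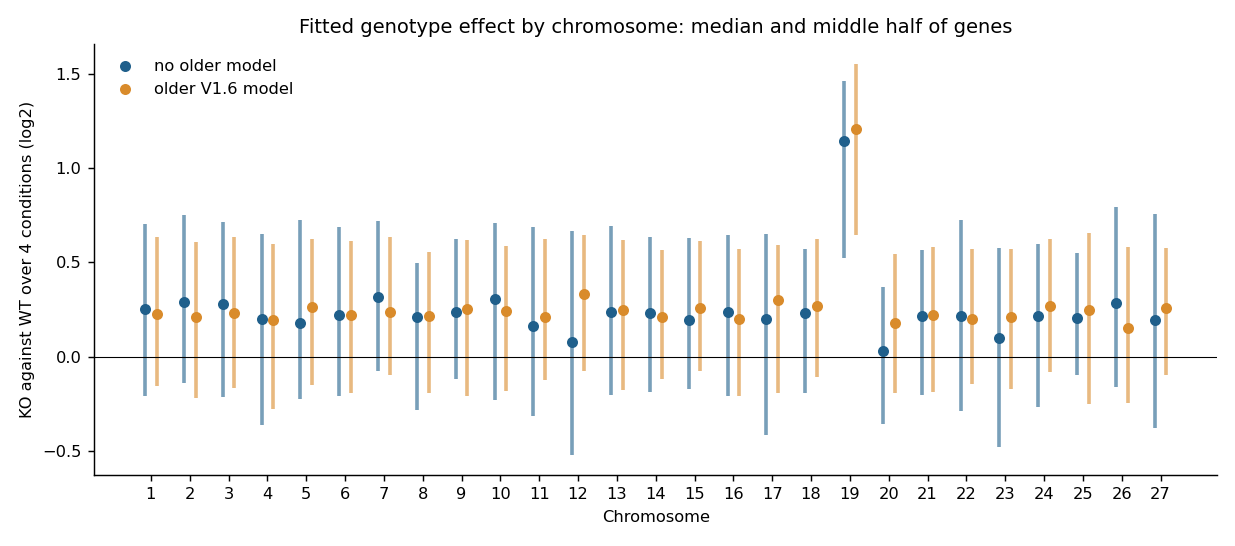
Points give the median limma KO effect (log2, KO against WT over 4 conditions) of unlinked and linked genes with a mean of at least 20 on each of the 27 chromosomes, and bars run from the lower to the upper quartile of genes. Chromosome 19 stands at 1.14 for unlinked and 1.21 for linked genes, and the unlinked medians of the other chromosomes lie between 0.03 and 0.32.

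Mannitol over both genotypes was called by limma in 35 unlinked genes as lower (0.800%) and in 0 as higher, beside a background of 0.54% and 0.0151%. Linked genes of like mean gave 0.340% for lower genes. edgeR called 23 as lower, each of them also called by limma, and 1 as higher. That gene, Phpat.026G002700 (chromosome 26, 179402 to 180620, plus strand), was chosen after its values were seen. It had 1, 4562, 1120 and 5447 WT reads and 0, 0, 0 and 1 KO reads, and its adjusted p was 0.0453 by edgeR and 0.447 by limma. At an unadjusted p under 0.05, 459 unlinked genes were higher with mannitol by limma and 488 by edgeR, and 418 were lower by each tool. The share of all genes at this unadjusted p was not computed, so these counts do not set unlinked genes apart. The 35 fell by a median of 4.69 on the log2 scale, 10 of them had a near copy, and 15 lay next to another called gene. Phpat.024G048300 fell by 7.01 ± 0.56 and Phpat.021G025100 by 6.96 ± 0.58, both with a limma adjusted p of 0.0166 and an edgeR adjusted p of 0.0424. Over all alternatives the adjusted p of both, by limma or edgeR, ran from 0.0164 to 0.111. Both, picked by this same fit, were lower with mannitol in 2 of 2 genotypes. With no level limit limma called 0 unlinked genes as lower.

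ABA and dehydration over both genotypes gave 0 calls among unlinked genes by limma and by edgeR, beside a limma background of 0.00505% higher and 0% lower for ABA and 0% for dehydration. At an unadjusted limma p under 0.05, 365 were higher and 167 lower with ABA, and 78 higher and 485 lower with dehydration. By edgeR these were 383, 159, 116 and 456. The share of all genes at this unadjusted p was not computed, so these counts do not set unlinked genes apart. Median limma effects were 0.23 for unlinked and 0.23 for all genes with ABA, and -0.20 and -0.21 with dehydration. The fit tests an effect shared by both genotypes, and a response of WT alone adds to its residual. The 0 calls thus do not show that ABA or dehydration had no effect in WT.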

How the data were processed

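The authors deposited a normalized abundance signal per gene and library, together with V3.0 gene models (Phytozome v10, per the file headers). Per the submitters' processing notes the tools included TopHat2, bedtools, SAMtools, Trimmomatic and FastQC. Their versions and roles, the normalization and the use of strand are not given in the sources used here. Within each library the deposited signal was a whole multiple of 1 step (100% of values whole within 0.01 read), so whole reads were recovered, with totals of 22516957 to 38767634. Limma 3.58.1 (R 4.3.3, trend) was run on log2(signal + 10) for genes with a mean of at least 20. edgeR 4.0.16 (quasi-likelihood) on the recovered reads called 554 genes higher and 364 lower in KO. Scripts were tested on simulated data. Linked genes were weighted over 20 bins of mean value. The genes, lists and tests were chosen with earlier results of these data known. The rule for named genes was per comparison the 2 highest and the 2 lowest unlinked genes by log2 difference, near copies counted once, plus the 3 of highest mean, the 2 on each side of the level limit and the 2 steadiest. The IDs matched 0 of 27567 RefSeq genes of another assembly. Alternatives were the pseudocount, the level limit, the scaling (median of ratios, DESeq2 1.42.0), the bins, equal-read genes, scaffolds, the tool, and each condition left out. Each group has 1 library of pooled RNA. The p-values thus measure an effect against the departure of these 8 libraries from added genotype and treatment effects. They do not measure the spread between cultures.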

Additional observations from a re-analysis of the deposited data

Results flagged for a closer look

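Among the named genes, 7 differed from their control by more than 1 log2 unit in opposite directions in WT and KO. Each genotype has 1 library per condition and the difference was not tested. For Phpat.003G020400 the log2 difference with ABA was 13.10 in WT and -1.65 in KO, and with mannitol 8.35 and -1.68. For Phpat.016G061400 it was 11.85 and -1.35 with ABA, and 6.73 and -1.35 with mannitol. The KO values of both genes rest on 0 or 1 read in the treated libraries and 14 or 22 in the control. For Phpat.021G018900, a model of 90 bp, it was 2.99 and -4.08 with ABA, and 2.67 and -4.02 with dehydration. For Phpat.016G058400 it was 1.08 and -2.73 with ABA, and for Phpat.016G058700 it was 1.07 and -2.73. For Phpat.1Z052600 it was -1.34 and 1.03 with dehydration, the KO values being 2 and 16 reads. For Phpat.011G016600 it was -4.06 and 1.71 with ABA, and -4.62 and 1.02 with mannitol, with at least 74 reads in each of these libraries.

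Over the 4376 unlinked genes above the level limit, such opposite differences occurred in 1.87% with ABA, 1.03% with mannitol and 0.754% with dehydration. Linked genes above the limit gave 1.44%, 1.16% and 0.919%. They were not weighted to like mean values here, and the median of the mean value was 117 for unlinked and 523 for linked genes. A difference in level was thus not separated from these shares.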

How the results depend on the processing

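No paired analysis was possible because each group has 1 library and the labels give no replicate numbers to serve as a block. The limma fit compares KO with WT within the 4 conditions, since treatment is a term in it. The share of unlinked genes expressed was 69.5% at a mean of at least 5, 30.3% at 100, 60.2% on the chromosomes alone and 58.4% without genes of equal reads. With a pseudocount of 1, which counts more low genes, the 4-fold counts were 254 lower with ABA and 520 lower with dehydration in WT. In KO they were 115 higher and 120 lower with ABA, 163 higher with mannitol, and 38 higher and 183 lower with dehydration. For KO against WT they were 104 higher and 89 lower untreated, 517 higher with ABA, 161 higher with mannitol and 516 higher with dehydration. Median-of-ratios scaling gave 245 lower with mannitol in WT, 32 higher with ABA in KO, and for KO against WT 26 higher and 72 lower untreated, 204 higher with ABA and 69 higher in the limma fit. With this pseudocount and this scaling, counts were made for unlinked genes only. They show how these counts depend on the setting and give no contrast with linked genes.

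The limma calls were the least stable. With no level limit the KO effect gave 0 higher and 0 lower calls and mannitol 0 lower. Without the ABA libraries the KO effect gave 0 higher and 0 lower calls, without mannitol 0 and 2, without dehydration 0 and 13, and without the controls 266 lower. The cause was not tested. Without chromosome 19, an alternative chosen after seeing the data, as was leaving out the chromosome 20 cluster, it gave 31 and 32. For mannitol edgeR gave 1 higher and 23 lower, and limma without trend 1 higher. Over all alternatives the adjusted p of the named KO effects ran from 0.000542 to 0.168, and of the named mannitol effects from 0.0164 to 0.111.

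The sign of the difference to linked genes of like mean was kept in 20 of 20 directions with 10 or 40 bins, and in 14 of 20 when span replaced the mean value, where 12 linked shares moved. No named gene changed its direction under the alternatives run. Under median-of-ratios scaling the balance of unlinked genes turned from mostly higher to mostly lower for mannitol in WT (183 and 154 became 123 and 245) and for KO against WT with ABA (328 and 279 became 204 and 338) and dehydration (303 and 260 became 244 and 316). Such scaling moves all genes of a library together. The median of all genes moved by -0.47, -0.38 and -0.28 in these comparisons, and linked genes were not recounted. Depth limits genes with few reads, where 1 read changes a fold, and the pooling of cultures limits every comparison.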
